A study of Homo sapiens with 4 samples.

Results

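The protein synthesis factors examined here were the mRNAs of 32 genes, chosen by name from a table of 61806 genes: 13 subunits of initiation factor eIF3, 8 factors of cap binding and scanning, 3 of start site selection and subunit joining, 6 elongation factors and 2 poly(A) binding proteins. They were measured by poly(A) RNA sequencing in JJ012, a human chondrosarcoma cell line, and in 143B, a human osteosarcoma cell line. Both lines were kept detached, in suspension, and were either left without melatonin (control) or given melatonin, an indoleamine hormone, at 1 mM for 72 h. There was 1 library per condition, so no difference below has a replicate check and no p-value was computed. The comparisons ask which factor mRNAs were higher or lower in the melatonin library of each line, and how the untreated lines differed.

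Translation of most mRNAs starts when the cap binding protein eIF4E, the scaffold eIF4G and the helicase eIF4A bind the capped end, and eIF3 brings the small ribosomal subunit to it. The subunit scans to a start codon, initiation factors are released, the large subunit joins, and the elongation factors then deliver aminoacyl-tRNAs and move the ribosome along the message. Many mRNAs of the translation machinery begin with a C followed by a run of pyrimidines (a terminal oligopyrimidine, or TOP, motif), and their translation is known to respond to the growth-regulating kinase mTOR and to the RNA binding protein LARP1. The data hold mRNA levels only, so nothing here measures a protein or a rate of translation.

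The RefSeq promoter windows (GRCh38.p14) covered 24 of the 32 genes. EIF3A, EIF3E, EIF3G, EIF3H, EIF3L, EEF1D, PABPC1 and PABPC4 were not among them. The windows below run from 10 bases before a RefSeq start to 20 bases after it. They are shown because the pyrimidine start was more frequent among the factors than among all genes, and because the factors that carried it had a lower median in the comparison of the untreated lines. Capitals mark a C followed by at least 4 further C or T letters, with the first letter between positions -2 and 3 of the start. The first 6 genes were lower in untreated JJ012 than in untreated 143B.
EEF1A1, chr6:73521013-73521042, minus strand: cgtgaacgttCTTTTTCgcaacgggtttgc
EEF2, chr19:3985444-3985473, minus strand: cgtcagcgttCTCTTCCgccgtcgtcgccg
EEF1B2, chr2:206159885-206159914, plus strand: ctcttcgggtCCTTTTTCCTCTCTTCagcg
EIF4B, chr12:53006446-53006475, plus strand: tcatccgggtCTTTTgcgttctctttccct
EIF3F, chr11:7987327-7987356, plus strand: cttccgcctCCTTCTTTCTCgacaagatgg
EIF4A2, chr3:186783567-186783596, plus strand: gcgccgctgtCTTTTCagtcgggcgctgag
EIF3K, chr19:38619178-38619207, plus strand: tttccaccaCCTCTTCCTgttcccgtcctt
EIF3I, chr1:32222397-32222426, plus strand: ttccggtcttactcacgttgcggccttcct
EIF5B, chr2:99337379-99337408, plus strand: ctgagaactcacaccatatgtgtcctgttc
EIF4E, chr4:98929114-98929143, minus strand: tggagcggttgtgcgatcagatcgatctaa

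EIF3K held the tract and was higher in JJ012. EIF3I, EIF5B and EIF4E held no tract, and the first 2 of them were higher in JJ012. These windows are a selection. The tract was also held by EIF4G2, which was lower in untreated JJ012 at a log2 fold change of -0.94. EIF3D, EIF3J and EIF3M held it too, at 0.14, -0.14 and -0.03. EIF4A1 held no tract and was lower, at -1.02. Of all 11 factors with the tract, 7 were lower and 1 higher. In all, 11 of the 24 factors (45.8%) had a pyrimidine start at one or more of their RefSeq starts, compared with 13% of 27305 genes. EEF1B2 and EIF4G2 held it at 1 of 2 starts, and a gene with more starts has more chances to hold it. Of the 6 factors on a written list of known TOP mRNAs that had a window, 5 held the tract. The letters CACGTG, a palindrome, stood in the 300-base promoter of 5 of the 24 factors (20.8%) and of 8.77% of all genes. The letters CCGGAAG, searched on both strands, stood in 5 factors (20.8%) and in 12.2% of all genes. A match of letters is a description of the window and shows no binding.

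The libraries held 15889564 to 19218343 gene counts. Mitochondrial genes took 6.78% of them in the JJ012 control, 4.35% in JJ012 with melatonin, 1.63% in the 143B control and 2.46% in 143B with melatonin, so this share differed in every comparison, and its part in the results was not tested. Levels are given as FPKM, a count divided by exonic length and by the library total, and a difference is the log2 ratio of FPKM after adding 1 to each value. A gene entered a comparison if it reached 1 FPKM in at least 1 of its 2 libraries, and it was called higher or lower at a log2 fold change of 0.58 or more in size, which is 1.49-fold. Beside it stands the log2 ratio of CPM, the count scaled to the library total alone, and its exact 95% Clopper-Pearson interval, which covers counting error only and not the spread between cultures. The JJ012 label was checked against chondrocyte markers: in its control library COL11A1 was at 22.92 FPKM, COL9A2 at 4.86 and COL11A2 at 1.67, with COL11A1 at 0 counts in 143B, and SOX9 was at 15.06 FPKM, close to its 15.48 FPKM in the 143B control, but ACAN, COL2A1, COL9A1, HAPLN1 and CNMD were at 4 counts or fewer. In 143B the osteoblast markers SP7, IBSP, DMP1 and COL1A2 were at 1 count or fewer in both libraries, and RUNX2 was at 4.28 FPKM in the control. Summed over 12 genes, osteoblast markers were higher in the JJ012 control than in the 143B control, at 113.5 and 15.03 FPKM. In the JJ012 control that sum was also above the 46.28 FPKM of the 13 chondrocyte markers. In the JJ012 melatonin library the summed level of the 13 chondrocyte markers was 11.94 FPKM against 46.28 in the control, that of 12 osteoblast markers 73.36 against 113.5, and the 5 leukocyte markers 4.25 against 11.33, mostly CD3E, with the pan-leukocyte PTPRC at 0.02 against 0.14. The 5 epithelial markers stood at 13.56 against 21.55 FPKM and the 4 endothelial markers at 0.93 against 2.4, with CDH1 and CDH5 near 0 throughout. In 143B the same 5 sums, in that order, were 19.23, 13.5, 0.08, 32.43 and 2.22 FPKM with melatonin and 21.83, 15.03, 0.26, 46.89 and 2.61 FPKM in the control. Whether these marker shifts had any part in the factor differences was not tested, and in bulk RNA fewer cells of a type and less RNA per cell cannot be told apart.

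Of the 32 factors, 31 passed the filter in every comparison. The exception was EEF1G, the structural subunit of the elongation factor eEF1 complex, with 13 counts in the JJ012 control, 3 in JJ012 with melatonin, 23 in the 143B control and 16 in 143B with melatonin. In GENCODE 29, 99.9% of the exonic bases of EEF1G are also exons of AP002990.1 on the same strand, so its counts cannot be read as its level. The other factors spanned a wide range. EIF3C was at 4.74, 4.91, 2.24 and 1.91 FPKM in the JJ012 control, JJ012 melatonin, 143B control and 143B melatonin libraries, and the lowest in each of them except the JJ012 control, where EIF4A1 was at 4.44 FPKM. EEF1A1 was at 379.13, 294.68, 1062.00 and 889.07 FPKM in the same order. EEF1A1, which carries aminoacyl-tRNA to the ribosome, and EEF2, which drives translocation, headed the order of deposited FPKM in all 4 libraries. That order depends on the length used. By the length of the principal GENCODE 29 transcript, EIF1 was above EEF2 in JJ012 with melatonin, at 380.12 and 365.296. The rank order of the 32 levels was close between the libraries of one line, with a Spearman rho of 0.97 in JJ012 and 1.00 in 143B, and less so between the untreated lines, at 0.85. The factors together received 1.18% of counts in untreated JJ012, 1.14% in JJ012 with melatonin, 2.58% in the 143B control and 2.37% in 143B with melatonin. The 6 elongation factors alone accounted for 0.547%, 0.459%, 1.55% and 1.38%.

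**Figure D1:**
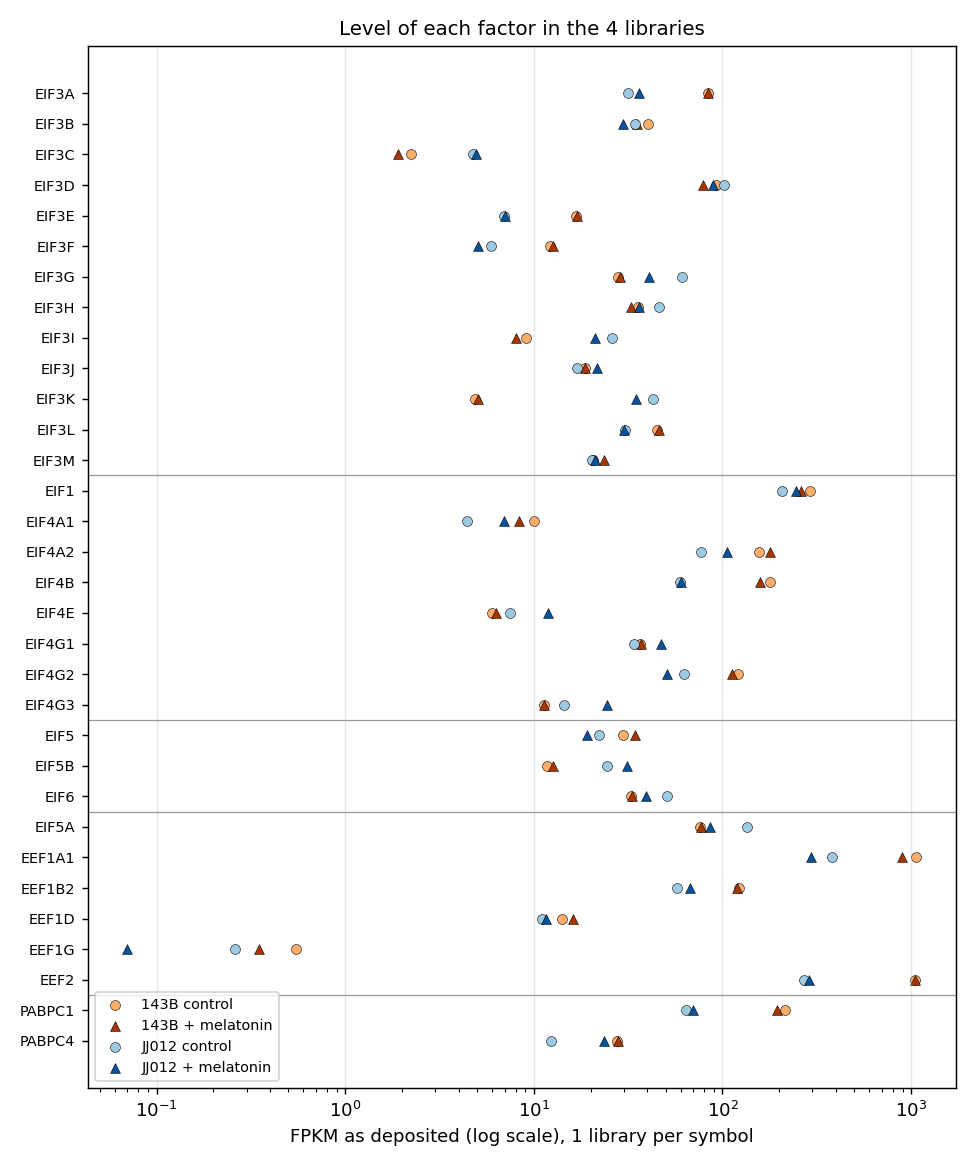
FPKM of the 32 factors (log axis) in the 4 libraries, grouped from top to bottom as eIF3 subunits, cap binding and scanning, start site and joining, elongation, and poly(A) binding; circles are controls, triangles melatonin, blue JJ012 and orange 143B. The 143B circles and triangles lie close together, EIF3K stands apart between the lines (42.79 and 4.90 FPKM in the controls), and EEF1A1 and EEF2 pass 1000 FPKM in the 143B control.

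In JJ012, melatonin was accompanied by higher mRNA of PABPC4, EIF4G3 and EIF4E and by lower mRNA of EIF5A, while the other 27 measured factors stayed inside the threshold. That is 3 of 31 factors higher and 1 lower, where 19.6% of all 15794 genes compared were higher and 18.6% lower, and 17.8% and 16.1% of the protein-coding genes. The factors' median log2 fold change was 0.04 and that of all genes 0.01. The shares of the factors past the threshold, 9.68% and 3.23%, thus lay under those of the table. By counting error alone, 13 factors had an interval wholly above 0 and 12 wholly below, with 36.9% and 35.2% of all genes on those sides.

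PABPC4 (chr1:39560709-39576790, minus strand) encodes an inducible cytoplasmic poly(A) binding protein. Its level was 12.31 FPKM in the JJ012 control and 23.68 FPKM with melatonin, from 2430 and 3928 counts. The log2 fold change was 0.89, and the log2 CPM ratio was 0.94 with an interval of 0.87 to 1.02. In 143B the gene stood at 27.45 FPKM in the control and 27.81 FPKM with melatonin, so the JJ012 melatonin library stood nearer to the 143B level than its control did. PABPC1, the major poly(A) binding protein, was at 63.74 and 70.07 FPKM in JJ012, a log2 fold change of 0.13. PABPC4 therefore made up 16.2% of the summed FPKM of the pair in the JJ012 control (interval 15.6 to 16.8%) and 25.3% with melatonin (24.6 to 26%). In 143B the share was 11.4% and 12.5%. Such shares, here and below, depend on the exonic lengths used, and their intervals cover counting error only. The deposited lengths were 9546 bases for PABPC1 and 10274 for PABPC4, against 4752 and 6782 in GENCODE 29.

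The cap binding and scanning group had the highest median among the groups of 3 or more factors in JJ012, at 0.46. Of its 8 members 2 (25%) were called higher, against 19.6% of all genes. Intervals were above 0 for 6 of 8, against 36.9% of all genes. With TPM the median was 0.74 and 5 of 8 were higher, against 33% of all genes. With the length trend removed the median was 0.31 and 1 of 8 was higher, against 18%. EIF4E (chr4:98879276-98929133, minus strand), which binds the cap itself, was at 7.52 FPKM in the control and 11.93 FPKM with melatonin, a log2 fold change of 0.60. Its CPM interval ran from 0.52 to 0.81, from 718 and 957 counts, so the estimate lay close to the threshold. EIF4G3 (chr1:20806292-21177285, minus strand), a scaffold paralogue of eIF4G1, was at 14.47 and 24.30 FPKM, a log2 fold change of 0.71 with a CPM interval of 0.68 to 0.81. EIF4G1 itself was at 33.82 and 47.05 FPKM, a log2 fold change of 0.46, below the threshold. The EIF4G3 share of the pair was 30% in the control and 34.1% with melatonin, against 23.6% and 23.5% in 143B.

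The helicase genes EIF4A2 and EIF4A1 gave log2 fold changes of 0.45 and 0.55 in JJ012. The log2 CPM ratio of EIF4A1 was 0.65 (interval 0.47 to 0.84), so its place under the threshold depended on the added 1 FPKM. EIF4A1 went from 4.44 to 6.99 FPKM, but 48.6% of its GENCODE 29 exonic bases are shared with other genes on the same strand, which leaves its level uncertain. EIF4A2 was at 77.22 and 106.05 FPKM. EIF1, which guards the choice of the start codon, was at 207.65 and 244.46 FPKM, a log2 fold change of 0.23. The helicase cofactor EIF4B was level at 59.67 and 60.45 FPKM. EIF4G2, an eIF4G relative that does not bind eIF4E, was the single member of the group with an interval below 0, at 62.34 and 50.96 FPKM, a log2 fold change of -0.29.

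No eIF3 subunit was called in JJ012. Intervals were wholly below 0 for 7 of 13 subunits and above for 2, against 35.2% and 36.9% of all genes. The median was -0.20, which turned to 0.07 with values rescaled to TPM. EIF3G, an RNA-binding subunit, came nearest to the threshold at 61.31 FPKM in the control and 40.92 FPKM with melatonin, a log2 fold change of -0.57. EIF3H, EIF3K and EIF3I followed at -0.35, -0.29 and -0.28. EIF3B, the scaffold that holds EIF3G and EIF3I, EIF3D and EIF3F lay at -0.21, -0.20 and -0.20. On the other side stood EIF3J, a loosely attached subunit, at 16.92 and 21.75 FPKM, a log2 fold change of 0.34, and the large scaffold EIF3A at 31.66 and 36.10 FPKM, or 0.18. EIF3C, EIF3E, EIF3L and EIF3M were between -0.02 and 0.06, with intervals across 0. The 8 subunits that form the PCI/MPN core of the complex had a median of -0.00, and the 5 outside it -0.21, with 4 of those 5 intervals below 0. With TPM these medians were 0.27 and 0.06, and with the length trend removed -0.14 and -0.41.

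EIF5A (chr17:7306999-7312463, plus strand) encodes the hypusine-carrying factor that relieves ribosomes stalled at difficult peptide bonds. It was the 1 factor called lower in JJ012, at 134.69 FPKM in the control and 86.08 FPKM with melatonin. The log2 fold change was -0.64 and the CPM interval ran from -0.70 to -0.59. In 143B its level was 76.01 and 76.96 FPKM. Its low-abundance paralogue EIF5A2 took 2.19% of the summed FPKM of the pair in the JJ012 control and 4.59% with melatonin, against 3.13% and 3.9% in 143B. The other elongation factors in JJ012 lay at -0.36 for EEF1A1, 0.10 for EEF2, and the nucleotide exchange subunits EEF1B2 and EEF1D at 0.23 and 0.07. EEF1A2, the tissue-restricted paralogue of EEF1A1, made up 8.53% of that pair in the JJ012 control (interval 8.26 to 8.81%) and 4.87% with melatonin (4.61 to 5.15%), with 16.1% and 15.8% in 143B.

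**Figure D2:**
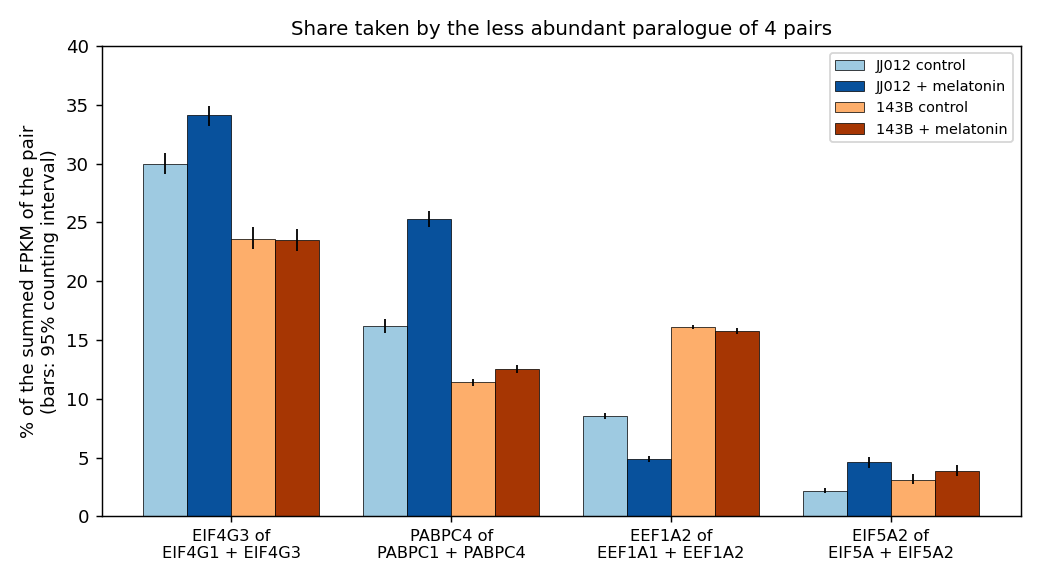
Share of the summed FPKM of 4 paralogue pairs taken by the less abundant gene, as bars from 0 in each of the 4 libraries, with 95% counting intervals as lines. In JJ012 the PABPC4 bar is higher with melatonin (25.3 against 16.2%) and the EEF1A2 bar lower (4.87 against 8.53%), while the 143B bars of each pair differ by little.

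Of the remaining initiation factors in JJ012, EIF5B, the GTPase of subunit joining, was at 24.42 and 31.29 FPKM, a log2 fold change of 0.35. EIF5, which triggers GTP hydrolysis on eIF2, was at 22.11 and 19.03 FPKM, or -0.21. EIF6, which keeps the large subunit free until it is needed, was at 50.95 and 39.16 FPKM, or -0.37. Thus the direction differed within this group of 3.

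The JJ012 fold changes moved with gene length. Across 11534 protein-coding genes the Spearman rho between fold change and deposited exonic length was 0.40, and across the 31 factors it was 0.18, both given as descriptions without a test. With the running median over length taken out, EIF4G3 had a log2 fold change of 0.35 and EIF5A of -0.43, so neither kept its call, and EEF1A1 passed the threshold on the lower side, which left 2 factors higher and 1 lower. Relative to the median gene, 3 were higher and 2 lower. With FPKM rescaled to TPM, 8 factors were higher and none lower, and the median JJ012 gene was at 0.21. The filter of 1 and the added 1 then applied to TPM, so 23153 genes were compared in place of 15794.

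In 143B no factor reached the threshold with melatonin, while 6.09% of the 14135 genes compared were higher and 6.65% lower, and 3.48% and 2.6% of the protein-coding genes. All 31 log2 fold changes lay within 0.3 of 0, and 16 within 0.1. The lowest was EEF1A1 at -0.26, from 1062.00 FPKM in the control to 889.07 FPKM. EIF4A1 at -0.24, from 10.05 to 8.35 FPKM, and EIF3D, a subunit with cap binding activity of its own, at -0.23, from 92.54 to 79.02 FPKM, came next. The highest were EIF4A2 and EIF5, both at 0.20, from 156.36 to 179.42 FPKM and from 29.64 to 34.26 FPKM. By counting error alone 4 intervals were wholly above 0 and 10 below, compared with 28.4% and 23.5% of all genes. The eIF3 median was 0.01, that of cap binding and scanning -0.05 and that of the elongation factors 0.01. The factors called in JJ012 stood near 0 in 143B: PABPC4 0.02, EIF4G3 0.00, EIF4E 0.06 and EIF5A 0.02.

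The difference between the lines was computed for each factor as the log2 CPM ratio in JJ012 less that in 143B, with a 95% interval from the counts (normal approximation, counting error only). That interval lay above 0 for 14 of 31 factors, below 0 for 10 and across 0 for 7. Of 11642 genes that passed the filter in both lines with counts in all 4 libraries, it lay above 0 for 36.4% and below 0 for 33.6%, against 45.2% and 32.3% of the factors. Opposite sides of 0 in the 2 lines were taken by 4 of 31 factors (12.9%) and by 21.5% of all genes. PABPC4 had the largest difference, 0.93 (0.83 to 1.02), followed by EIF4A1 at 0.92 (0.69 to 1.15), EIF4G3 at 0.74 (0.64 to 0.85) and EIF4E at 0.60 (0.37 to 0.82). On the other side were EIF5A at -0.66 (-0.75 to -0.57) and EIF3G at -0.63 (-0.75 to -0.50). By contrast, EIF3B, EIF3D and EIF3E differed by -0.02, 0.03 and -0.00, with intervals across 0. With 1 library per condition, whether such differences exceed the spread between cultures cannot be known.

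**Figure D3:**
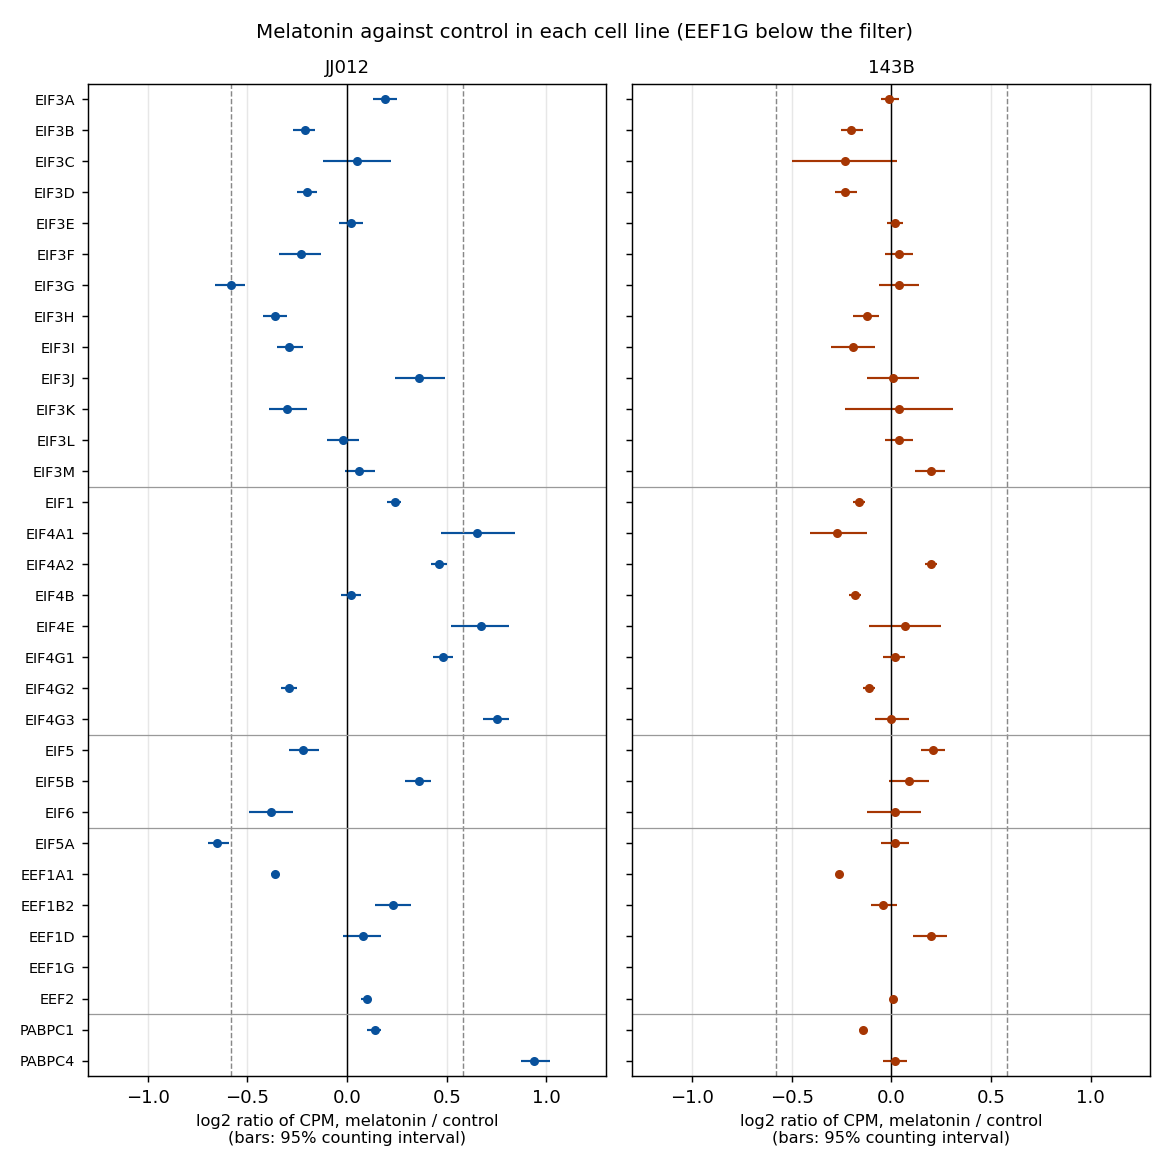
log2 CPM ratio of melatonin over control for each factor in JJ012 (left) and 143B (right), with 95% counting intervals as bars; dashed lines mark a log2 of 0.58 in either direction, and EEF1G has no point. In JJ012 the points spread from EIF5A at -0.65 to PABPC4 at 0.94, whereas in 143B all lie between the dashed lines.

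Other genes of the translation machinery, taken from written lists, were placed beside the factors. Their counts stand against 19.6% higher and 18.6% lower over all genes in JJ012. With TPM the shares were 33% and 19.9%, over the larger set of 23153 genes that passed the filter on that scale. Of 79 cytosolic ribosomal protein genes in JJ012, 12 (15.2%) were lower and none higher, 77 intervals were below 0, and the median was -0.39. With TPM 1 was lower and the median was -0.13. In contrast, 5 of 20 cytosolic aminoacyl-tRNA synthetase genes (25%) were higher and none lower, with a median of 0.39, and 11 with TPM, with a median of 0.68. In the group of eIF2, eIF2B and the eIF2 kinases and phosphatase subunits, 4 of 14 (28.6%) were higher and none lower, with a median of 0.34, but 8 with TPM and 1 with the length trend removed. Mitochondrial translation factors were split, with 2 of 11 higher and 1 lower, and none past the threshold with the length trend removed. The other lists gave 3 higher (18.8%) and 1 lower among 16 regulators and relatives of eIF4F, 1 higher among 10 other initiation factors, 2 higher and 1 lower among 14 elongation relatives and modifying enzymes, and 0 among 3 termination factors and 2 other poly(A) binding proteins. With TPM the numbers higher were 6 of 17 regulators and relatives of eIF4F, 2 other initiation factors, 6 elongation relatives and 2 termination factors. In 143B none of these genes was called except for 2 elongation relatives that were higher, and the ribosomal protein median was -0.05.

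The related genes with the largest JJ012 differences included regulators of the factors above. MKNK2, a kinase that phosphorylates eIF4E, was at 19.99 FPKM in the control and 62.35 FPKM with melatonin, a log2 fold change of 1.59. ABCE1, which splits ribosomes after termination, was at 11.44 and 27.76 FPKM, or 1.21. LARP1, the binder of TOP mRNAs, was at 12.59 and 22.49 FPKM, or 0.79, and PPP1R15B, a subunit of an eIF2 phosphatase, at 8.84 and 15.63 FPKM, or 0.76. The 10 measured factors on the TOP list had a JJ012 median of 0.04 with melatonin, and none was called. Their intervals lay above 0 for 4 and below 0 for 3, against 36.9% and 35.2% of all genes. That median was 0.32 with TPM and -0.17 with the length trend removed. The synthetases YARS1, AARS1, IARS1, GARS1 and FARSB had log2 fold changes of 1.31, 1.24, 1.06, 0.93 and 0.83, and the mitochondrial elongation factor GFM1 0.84. On the lower side were EEF1A2, at 35.36 and 15.09 FPKM or -1.18, and the ribosomal protein gene RPS26, at 47.50 and 24.50 FPKM or -0.93. In 143B a single gene met the same naming rule, the selenocysteine elongation factor EEFSEC, at 4.10 and 7.25 FPKM, a log2 fold change of 0.69.

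**Figure D4:**
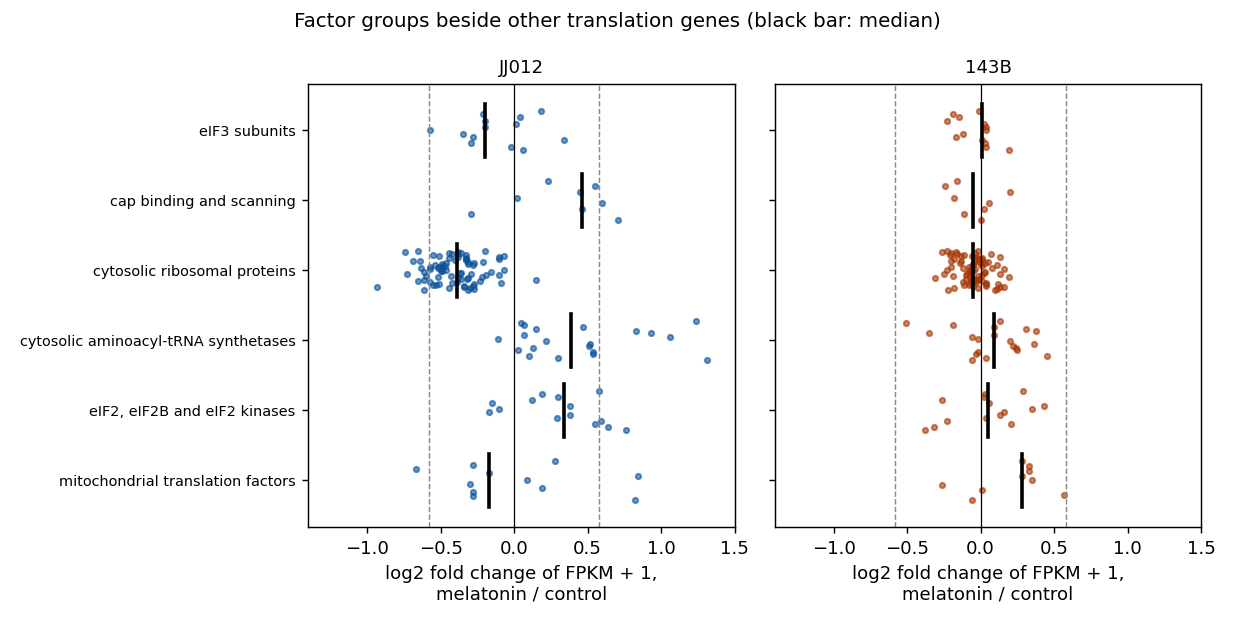
log2 fold change of FPKM + 1, melatonin over control, for the genes of 6 groups in JJ012 (left) and 143B (right); each point is a gene, black bars are group medians and dashed lines mark 0.58 in either direction. In JJ012 the ribosomal protein median is at -0.39, the eIF3 median at -0.20, and the cap binding and aminoacyl-tRNA synthetase medians at 0.46 and 0.39 (with TPM the eIF3 median is 0.07 and that of the ribosomal proteins -0.13).

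More factors passed the threshold between the untreated lines than with melatonin in either line. Untreated JJ012 had 7 of 31 factors higher and 12 lower than untreated 143B, where 41.3% of 16929 genes were higher and 27.4% lower, and 39.6% and 25.1% of the protein-coding genes. Intervals lay above 0 for 11 factors and below 0 for 19, against 50.8% and 35.1% of all genes. The control libraries here are the same ones that the melatonin comparisons use, so a high or low control enters both. The factors' median was -0.32 while that of all genes was 0.29. Relative to the median gene, 4 factors were higher and 16 lower, and with the length trend removed 5 and 15. With TPM, where EEF1G also passed the filter, 5 of 32 were higher and 18 lower. The fold changes of all protein-coding genes ran with exonic length here too, at a Spearman rho of -0.30, and at -0.28 over the factors.

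The lower factors were led by the abundant elongation and poly(A) binding mRNAs. EEF2 (chr19:3976056-3985463, minus strand) was at 268.92 FPKM in JJ012 and 1044.33 FPKM in 143B, a log2 fold change of -1.95. PABPC1 was at 63.74 and 213.35 FPKM, or -1.73, EIF4B at 59.67 and 177.60 FPKM, or -1.56, and EEF1A1 at 379.13 and 1062.00 FPKM, or -1.48. These carry the pyrimidine start in the windows above, apart from PABPC1, which had no window. EIF3A, EIF3E, PABPC4, EEF1B2, EIF4A1, EIF4A2, EIF4G2 and EIF3F made up the rest, between -1.37 and -0.93. Of 10 measured factors on the TOP list 8 (80%) were lower and none higher, with a median of -1.26. Over all genes 27.4% were lower and 41.3% higher. EEF1D and EIF3H, at -0.32 and 0.37, were the other two. With TPM the list's median was -1.60, over 11 factors because EEF1G was included. The 79 ribosomal protein genes, themselves TOP mRNAs, had a median of -0.94, with 55 (69.6%) lower and 1 (1.27%) higher. In contrast, 8 of 11 mitochondrial translation factors (72.7%) were higher and 1 (9.09%) lower. Their median was 0.81, against 0.29 for all genes. Relative to the median gene 5 of 11 were higher, against 32.6% of all genes, with a median of 0.52. With the length trend removed 4 were higher, against 29.8%, with a median of 0.47.

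By the letters at the start, 11 factors with the pyrimidine start had a median of -0.94, with 7 lower (63.6%) and 1 higher (9.09%). The 12 factors without it had a median of 0.31, with 1 lower (8.33%) and 5 higher (41.7%). The intervals of these medians, -1.56 to 0.14 with the start and -0.41 to 0.83 without it, overlapped. Outside the factors and the ribosomal proteins, 1669 genes with the pyrimidine start had a median of 0.16 (interval 0.11 to 0.24). Of these, 25.6% were lower and 36.3% higher. Outside the factors, 8879 genes without the start had a median of 0.32 (interval 0.29 to 0.36), with 23.7% lower and 41.7% higher. The gap between the medians of the classes was narrower there than among the factors. The factor medians rest on 11 and 12 genes, and whether the gaps differ was not tested. With melatonin the corresponding medians of the factors were 0.02 and 0.14 in JJ012 and 0.01 in both classes in 143B.

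The higher factors were mostly eIF3 subunits. EIF3K (chr19:38619082-38636955, plus strand), a small peripheral subunit, was at 42.79 FPKM in JJ012 and 4.90 FPKM in 143B, from 2301 and 218 counts. The log2 fold change was 2.89, and the CPM ratio was 8.73-fold, with a log2 interval of 2.92 to 3.33. It was also low in the second 143B library, at 5.04 FPKM, and stood at 34.82 FPKM in the second JJ012 library. EIF3L, which lies next to EIF3K in the complex, was on the other side at 30.37 and 44.99 FPKM, or -0.55, although 41.1% of its exonic bases are shared with another gene on its strand. EIF3I was at 25.89 and 9.12 FPKM, or 1.41, and EIF3G at 61.31 and 27.80 FPKM, or 1.11, whereas EIF3B, to which both bind, was at 34.31 and 40.16 FPKM, or -0.22. EIF3C, at 4.74 and 2.24 FPKM or 0.83, has a near-identical copy, EIF3CL, and its value is uncertain.

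Of the 13 eIF3 subunits, 4 were higher in untreated JJ012 (EIF3C, EIF3G, EIF3I and EIF3K) and 3 lower (EIF3A, EIF3E and EIF3F), with a group median of -0.03. These shares, 30.8% and 23.1%, lay under the 41.3% and 27.4% of all genes. Leaving out EIF3C, FPKM of the highest subunit, EIF3D in each line, exceeded that of the lowest by 17.2-fold in the JJ012 control and by 18.9-fold in the 143B control. The lowest subunit was EIF3F in JJ012 and EIF3K in 143B. Levels between subunits depend on the length used: EIF3E has a deposited exonic length of 37761 bases and a principal transcript of 1543 bases in GENCODE 29, and by principal transcript length, known for 12 subunits, EIF3E was the highest one in the 143B control.

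Outside eIF3, EIF5B was at 24.42 FPKM in JJ012 and 11.79 FPKM in 143B, a log2 fold change of 0.99, EIF5A at 134.69 and 76.01 FPKM, or 0.82, and EIF6 at 50.95 and 32.83 FPKM, or 0.62. The calls of EIF5A and EIF6 depended on scaling: relative to the median gene they were 0.53 and 0.33, and with the length trend removed 0.13 and -0.34. With the length trend removed EIF3G was at 0.50. EIF1, EIF5, EIF3D, EIF3H, EIF3J, EIF3M and EEF1D also stayed inside the threshold. So did the cap binding proteins, with EIF4E at 0.28, EIF4G3 at 0.33 and EIF4G1 at -0.10.

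**Figure D5:**
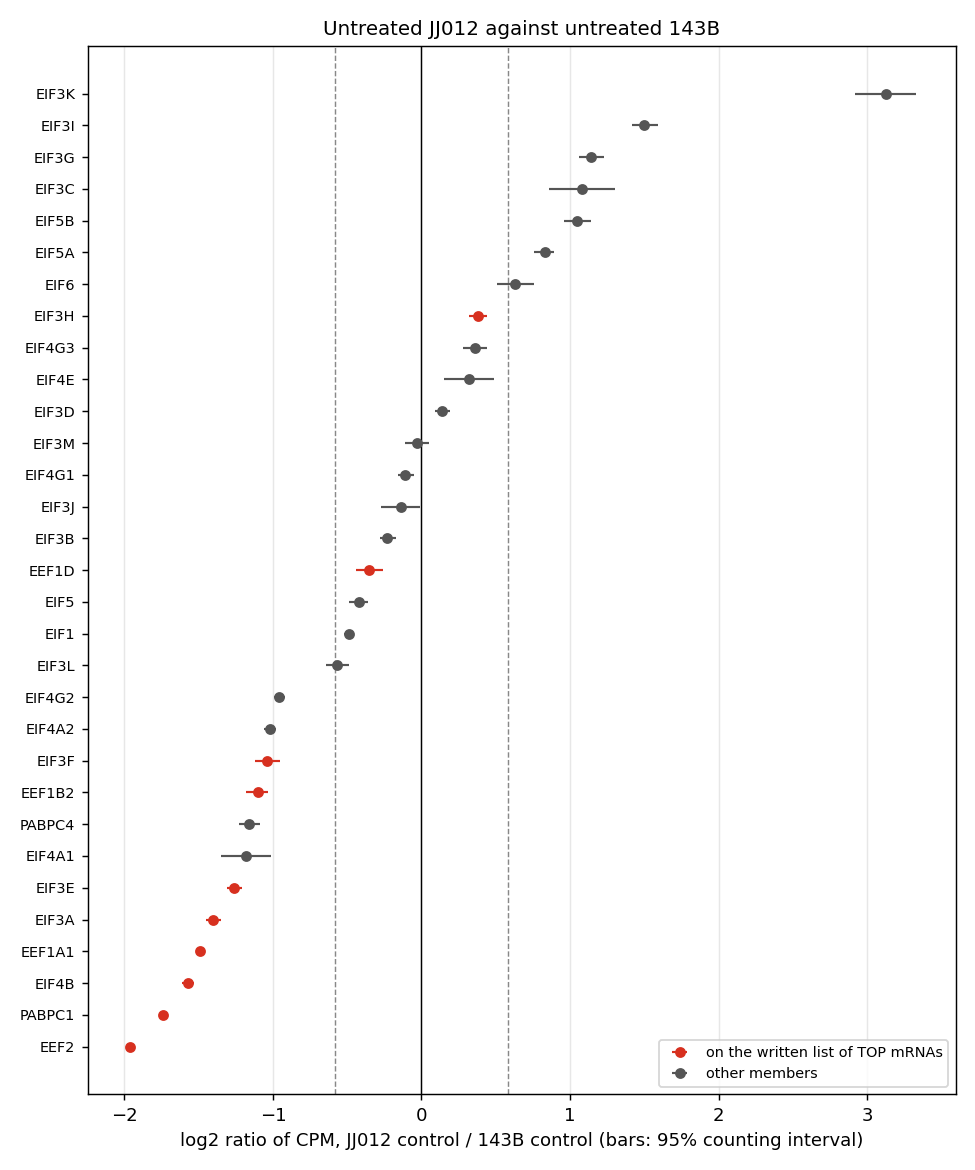
log2 CPM ratio of untreated JJ012 over untreated 143B for 31 factors in order, with 95% counting intervals as bars and dashed lines at 0.58 in either direction; red marks genes on the written list of TOP mRNAs. EEF2 is at -1.96 and EIF3K at 3.13, and 9 of the 10 red points lie below 0.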

How the data were processed

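The deposited table holds, per gene, raw counts and FPKM for 4 libraries. The submitters' processing notes name cutadapt 1.9.1, HISAT2 2.2.1, HTSeq 0.6.1, DESeq2 and build hg38. The annotation release and the strand setting are not given in the sources used here. The deposited FPKM equal counts over exonic length and library total, within rounding. A T after the line's name in a column was taken to mean melatonin.

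The log2 fold change was taken on FPKM + 1 after a filter of 1 FPKM in at least 1 library of a comparison, and called at 0.58, the fold threshold of the study's methods without its significance criterion, since 1 library per condition gives no spread. Library totals were 15889564 to 19218343 counts. Exon overlaps came from GENCODE 29 and start windows from RefSeq. The members, the lists and the rules were chosen with earlier results of these data known. Values are given in full for factors at the threshold in any comparison and for the 5 largest changes per line, and for related genes at the threshold with 5 FPKM, at most 12 per line. Alternatives were another pseudocount, other filters, CPM, TPM, centring, removal of the length trend (running median of 501 genes) and a threshold of 1, and, chosen after seeing the data, leaving out EIF3C, EIF3L, EIF4A1 and EEF1G. Scripts were tested on simulated data and ran in Python 3.11.15 (pandas 2.3.3, scipy 1.17.1, matplotlib 3.10.9, numpy 2.4.6).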

Additional observations from a re-analysis of the deposited data

Results flagged for a closer look

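Among the 31 measured factors, 4 had counting intervals of the melatonin ratio on opposite sides of 0 in the 2 lines, a share of 12.9%, while 21.5% of all genes did, so the count is not particular to the factors. EIF4A1 was above 0 in JJ012 and below in 143B, a difference of 0.92 on the log2 CPM scale, and shares exons with other genes on its strand. EIF1 and PABPC1 lay the same way, with differences of 0.39 and 0.28. EIF5 was below 0 in JJ012 and above in 143B, a difference of -0.43. With 1 library per condition the difference between lines was not tested against the spread between cultures.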

How the results depend on the processing

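In JJ012 the number of factors called lower was 1 in the report, 2 with a pseudocount of 0.1 FPKM and 2 after centring on the median gene (EIF3G joined EIF5A in each), and 0 with TPM and 0 at a threshold of 1. The number higher was 8 with TPM and 0 at a threshold of 1, and the median was 0.31 with TPM. It was 4 with CPM and 4 with a pseudocount of 0.1 FPKM, where EIF4A1 joined the higher factors. EIF4E and PABPC4 kept their JJ012 calls at 0.58 in 8 of 8 other settings, EIF4G3 in 7 and EIF5A in 6. Among the 8, the other filters and the leaving out of other factors cannot change these fold changes. Those settings were therefore no check of the calls. The lowest EIF4E value was 0.58, at the threshold itself. In 143B no factor was called in any setting. Between the untreated lines the number higher was 4 after centring and 3 at a threshold of 1, and EIF6 turned to -0.34 with the length trend removed. The causes were not tested. The other values of these summaries moved within 1.5 times the reported count or within their interval. Counting intervals do not cover variation between cultures. No paired analysis was possible because each condition had 1 library and the labels give no replicate numbers.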
